A study of Mus musculus with 7 samples.

Results

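The AP-1 family genes described here are 10 transcription factor genes taken by symbol: Fos, Fosb, Fosl1, Fosl2, Jun, Junb, Jund, Atf3, Batf and Maff. All 10 were listed among the 48440 genes of a table of LPS-stimulated macrophages and the 55352 genes of a table of AAV-transduced macrophages. The cells were bone-marrow-derived macrophages (BMDMs), grown with M-CSF from the marrow of wild-type C57BL/6 mice. In the LPS experiment BMDMs were left untreated (0 h) or given LPS, a bacterial cell wall component that macrophages sense through TLR4, at 100 ng per mL for 2 h or 4 h. Each time point has 1 library. In the AAV experiment BMDMs were kept for 48 h with AAV-GFP or with AAV-Shisa3, and each group has 2 samples. Both vectors drive their cargo from the CAG promoter, which is active in most cell types. Neither group of the AAV experiment is labelled as given LPS. The AAV-GFP samples are labelled WT and serve as the control, and both groups carry a vector.

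AP-1 is a dimer of bZIP proteins, which pair through a leucine zipper and contact DNA through a basic region. Fos proteins bind DNA with a Jun partner, whereas Jun proteins can also pair among themselves. Kinases of the ERK, JNK and p38 families raise both the transcription of these genes and the activity of the proteins, and in macrophages the resulting dimers act on cytokine, chemokine and protease genes. Atf3, Batf and Maff are smaller bZIP proteins that join the same network, often as partners that limit or redirect it.

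The LPS table holds read counts divided by 1 factor per library, and the reads could be recovered: 15588502 at 0 h, 7263258 at 2 h and 32659392 at 4 h. Its intervals cover counting error only, and with 1 library per time point no test was possible. The 2 h library is the shallowest and stood apart in its mitochondrially encoded reads, at 0.0803% of all reads against 0.655% at 0 h and 0.427% at 4 h, and it cannot be told apart from the 2 h time point. The AAV table holds TPM, a level per transcript length that sums to the same total in each sample, so its depth is unknown. All 10 macrophage markers had reads or TPM in every sample, while Cd3e, Cd3d, Cd3g and Trac, which define T cells, were at 0 TPM in all 4 AAV samples. Of the other T cell markers, Cd8a was at 0.05 to 0.14 TPM and Cd4 at 5.76 and 7.13 TPM under AAV-GFP against 8.82 and 10.39 TPM under AAV-Shisa3. Shisa3 itself was at 7.88 and 10.85 TPM under AAV-GFP against 12.31 and 17.81 TPM under AAV-Shisa3. Its log2 difference of 0.63 (SE 0.218) missed the threshold of limma with Benjamini-Hochberg adjustment (adjusted p = 0.138), and the table does not separate the transgene from the cells' own gene.

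Promoter letters were read from RefSeq (GRCm38.p6), whose table held 11 windows for 9 members, from 250 bases before to 50 bases after a start. The motifs were searched on both strands, chosen with these promoters in view. Shown first are the promoters of Fos, Junb and Batf, which differed between the AAV groups, up to the gene start of the GENCODE annotation. Then come stretches of 25 bases either side of the CRE-like match of Jun, Atf3 and Maff, a site named for cAMP response and bound by Jun, ATF and CREB proteins. Capitals mark motif matches, and in the shorter stretches the CRE-like match alone.
Fos (chr12:85473640-85473889, plus strand): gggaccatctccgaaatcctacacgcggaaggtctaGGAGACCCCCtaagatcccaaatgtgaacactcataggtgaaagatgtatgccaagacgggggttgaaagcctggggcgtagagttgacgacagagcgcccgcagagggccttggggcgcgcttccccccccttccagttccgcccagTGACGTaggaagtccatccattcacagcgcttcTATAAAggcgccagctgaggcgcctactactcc
Junb (chr8:84978719-84978998, minus strand): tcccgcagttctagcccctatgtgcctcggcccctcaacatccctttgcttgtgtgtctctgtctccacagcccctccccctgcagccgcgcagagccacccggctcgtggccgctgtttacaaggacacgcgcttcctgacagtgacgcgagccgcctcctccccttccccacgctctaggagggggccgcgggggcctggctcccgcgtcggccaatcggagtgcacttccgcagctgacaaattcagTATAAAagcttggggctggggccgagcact
Batf (chr12:85686470-85686668, plus strand): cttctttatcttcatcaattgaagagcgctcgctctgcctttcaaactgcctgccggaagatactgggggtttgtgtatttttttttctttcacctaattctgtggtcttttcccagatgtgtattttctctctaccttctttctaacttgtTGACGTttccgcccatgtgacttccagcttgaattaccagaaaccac
Jun (chr4:95052235-95052292, minus strand): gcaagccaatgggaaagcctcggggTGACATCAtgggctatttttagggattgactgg
Atf3 (chr1:191183311-191183366, minus strand): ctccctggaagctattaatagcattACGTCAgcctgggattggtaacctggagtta
Maff, start 2 (chr15:79347466-79347523, plus strand): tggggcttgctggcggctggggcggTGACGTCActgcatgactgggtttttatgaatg
Maff, start 3 (chr15:79348332-79348389, plus strand): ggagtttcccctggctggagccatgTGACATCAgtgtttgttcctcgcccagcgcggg

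The letters ACGTCA, the core of a CRE, were in the windows of Fos, Atf3, Batf and Maff, which is 4 of 9 members, and in 7.51% of all 32851 windows of the table. The longer TGACNTCA was in Jun and Maff, 2 of 9 members, and in 8.83% of all windows, and in the second Maff window it overlaps the core. The palindromic AP-1 site TGANTCA was in no member window and in 7.81% of all windows. An NF-kB site, by its name, was in Fos, Fosb, Fosl2 and Maff, and in 8.46% of all windows. A CArG box of SRF was in no member window and in 1.63% of all windows. TATAAA was in Fos, 33 bases before the start, and in Junb, at the start the table gives, and in 13.6% of all windows. Sequence more than 250 bases before a start was not searched, so these counts say nothing of sites there. The Junb start of the table lies 30 bases upstream of the GENCODE gene start and that of Jund 1210 bases upstream, so the Jund window is not the sequence next to its annotated gene. Other starts lie inside the GENCODE gene, by 34706 bases for Atf3, 899 and 1781 for starts 2 and 3 of Maff, 671 for Fosl2, 51 for Batf and 6 for Fosb. These are letter matches and no binding was measured.

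**Figure D1:**
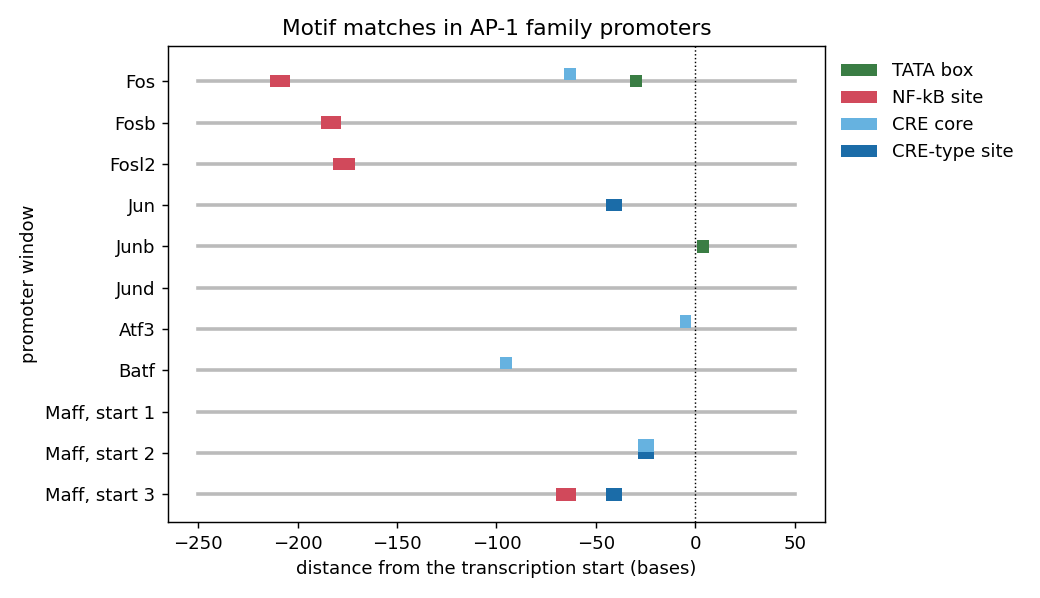
Motif matches (coloured boxes) along the 11 promoter windows of 9 members, drawn as grey lines by distance in bases from the transcription start (dotted line). CRE core boxes are drawn slightly above the line, and they stand in the windows of Fos, Atf3, Batf and the second start of Maff.

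After LPS most of the family was higher, and the Fos gene itself moved differently from the rest. At 2 h, 7 of the 8 members with a fold were at least 2-fold higher than at 0 h and 0 were at least 2-fold lower, where 19.3% and 19.4% of the 14596 genes with a fold were that much higher and lower. At 4 h, 7 of 9 members were at least 2-fold higher and 0 at least 2-fold lower, against 19.8% and 22.3% of 17064 genes. From 2 h to 4 h, 1 of 8 members, Fos, was at least 2-fold higher and 3, Junb, Jund and Maff, were at least 2-fold lower, against 12% and 13.3% of 14102 genes. The median log2 fold of the members was 2.97 at 2 h and 2.54 at 4 h, against −0.07 and −0.05 over all genes. The folds given for single genes are ratios of the authors' values. The counts of genes at least 2-fold higher or lower and the medians are on the log2(value + 1) scale, where Fosl1 at 4 h was at 0.87 and is not among the 7.

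When the reads were scaled to the library totals in place of the authors' factors, the median log2 fold of all genes was −0.67 at 2 h and −0.90 at 4 h, and 5 members (Fosl2, Junb, Atf3, Batf and Maff) stayed at least 2-fold higher at 4 h. Jun changed its direction at 4 h under that scaling, and Fos passed 2-fold lower at 2 h. The share of changed genes that were higher went from 49.9% to 23.4% at 2 h and from 47.1% to 18.6% at 4 h. Values below are with the authors' factors unless another scale is named.

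**Figure D2:**
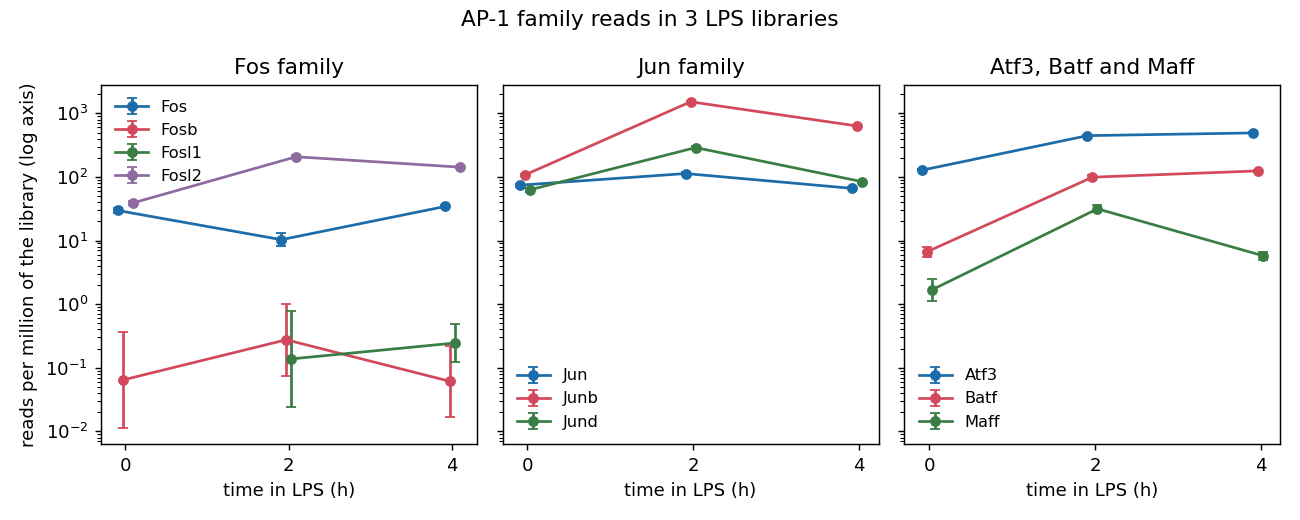
Reads per 1000000 reads of the library (log axis) of the 10 members at 0, 2 and 4 h of LPS, 1 library per point, with 95% Wilson intervals for counting error. Fosl2, Jun, Junb, Jund and Maff peak at 2 h, Atf3 and Batf are highest at 4 h, and Fos is lowest at 2 h. Fosl1 had 0 reads at 0 h and has no point there.

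Fos (chr12:85473890-85477273, GRCm38), the founding member and a classical immediate-early gene, had 463 reads at 0 h, 75 at 2 h and 1122 at 4 h. The authors' values were 297.8, 163.8 and 609.7. It was therefore lowest at 2 h, 1.82-fold below 0 h (95% interval 1.42 to 2.35), and at 4 h it stood 3.72-fold above 2 h (2.95 to 4.77) and 2.05-fold above 0 h (1.84 to 2.29). With library totals the 2 h value was 0.348 of that at 0 h and the 4 h value 1.16 times it, so the dip and the later gain kept their direction while the size of the difference between 4 h and 0 h did not. No library was taken between 0 h and 2 h.

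Fosl2 (chr5:32135801-32157842), which encodes Fra-2, a Fos relative without the strong activation domain of Fos, took the opposite course at 2 h. It had 606, 1510 and 4664 reads at 0, 2 and 4 h, with values of 389.8, 3297 and 2534. It was 8.46-fold higher at 2 h (7.69 to 9.31) and 6.50-fold higher at 4 h (5.97 to 7.09). Fosl1 (chr19:5447547-5455946), which encodes the related Fra-1, had 0, 1 and 8 reads. Its value at 4 h was 2.25 times that of 3 reads at 0 h, the floor used here, which is 0.192 reads per 1000000. The lower 95% limit of the fold was 1.44, and with library totals it was 0.815, which lies below no change. Fosb (chr7:19302696-19310051), a Fos paralog that peaks early after stimulation, had 1, 2 and 2 reads, at or under the floor throughout, and is given no fold.

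Divided by exon length, the summed Fos family level was 37.0 at 0 h, 49.7 at 2 h and 68.8 at 4 h, on a scale like TPM. Within it the share of Fos went from 75.8% to 16.9% and then 49.5%, and that of Fosl2 from 24.1% to 82.7% and 50.0%. At 4 h the levels per exon length were 34.1 for Fos and 34.4 for Fosl2, after Fosl2 had led at 2 h. The ratio of these genes within a library does not depend on how the libraries are scaled, but it depends on the length used. Per length of the main transcript, a choice added after seeing the data, Fosl2 was at 0.422, 6.49 and 1.34 times the level of Fos at 0, 2 and 4 h.

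Junb (chr8:84974484-84978718), a Jun protein that often restrains Jun and is a partner of Batf, had 1671, 11054 and 20748 reads, and values of 1075, 24138 and 11275. It was 22.5-fold higher at 2 h (21.3 to 23.7) and 10.5-fold higher at 4 h (9.98 to 11.0). Jund (chr8:70698949-70700616), usually expressed at rest, had 977, 2105 and 2767 reads, and values of 628.5, 4597 and 1504. It was 7.31-fold higher at 2 h (6.78 to 7.90) and 2.39-fold higher at 4 h (2.22 to 2.58), and 1.35-fold higher at 4 h with library totals. Both genes were highest at 2 h.

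Jun (chr4:95049034-95052222), the target of the JNK kinases and a strong activator, had the smallest folds of the Jun family. It had 1159, 822 and 2166 reads, and values of 745.5, 1795 and 1177. It was 2.41-fold higher at 2 h (2.20 to 2.64) and 1.58-fold higher at 4 h (1.47 to 1.70), and with library totals it was 1.52-fold higher at 2 h but 0.892 of the 0 h level at 4 h. The summed Jun family level per exon length went from 239 to 1665 and 811, and the share of Junb in it from 43.3% to 76.0% and 79.4%. The share of Jun went from 21.7% to 4.08% and 5.98%, so Junb made up most of the summed level after LPS.

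GC content moved with the comparison of 4 h with 2 h. Across 10435 coding genes with a mean of at least 30 reads, the log2 fold of 4 h against 2 h had a Spearman correlation of −0.42 with the GC content of the main transcript, and genes share the same 2 libraries. The GC content was 67.1% for Jund, 62.6% for Junb, 57.6% for Maff and 51.9% for Fos. In a comparison added after seeing the data, each fold was taken relative to the median of coding genes within 2 percentage points of GC content. Junb was then 0.640 and Jund 0.588 of the 2 h level at 4 h, no longer past 2-fold, and Maff was 0.246 of it, so that 1 member was at least 2-fold lower in place of 3. The median used for Jund rested on only 35 genes and that for Junb on 281, against 1646 for Maff. Against 0 h, Fosl2, Junb, Jund, Atf3, Batf and Maff stayed at least 2-fold higher at both times, Jun at 2 h and Fos at 4 h, with Jund 5.26-fold and Junb 20.3-fold higher at 2 h.

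Atf3 (chr1:191170296-191218039), an LPS-induced repressor of cytokine genes, had 1986, 3244 and 16099 reads, and values of 1278, 7084 and 8748. It was 5.54-fold higher at 2 h (5.24 to 5.87) and 6.85-fold higher at 4 h (6.54 to 7.18). Batf (chr12:85686669-85709087), a small protein that pairs with Jun proteins and works with IRF factors, had 103, 721 and 4070 reads, and values of 66.3, 1574 and 2212. It was 23.8-fold higher at 2 h (19.3 to 29.5) and 33.4-fold higher at 4 h (27.5 to 41.0), the largest 4 h fold among the members. Neither gene was lower at 4 h than at 2 h.

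Maff (chr15:79346621-79359076), a small Maf protein without an activation domain, had 26, 229 and 188 reads, and values of 16.7, 500.1 and 102.2. It was 29.9-fold higher at 2 h (19.9 to 46.8), the largest 2 h fold among the members, and 6.11-fold higher at 4 h (4.04 to 9.59). It then stood 4.89-fold below its 2 h value (4.02 to 5.97). The 2 h interval holds the 2 h folds of Batf (23.8) and Junb (22.5), so Maff is not set apart from them beyond counting error. Atf3 made up 91.7% of the summed level of Atf3, Batf and Maff at 0 h, and 71.5% and 71.6% at 2 h and 4 h.

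Ordered by level per exon length, Atf3 (131), Junb (104) and Jund (83.6) led at 0 h, followed by Jun (51.9), Fos (28.1), Batf (10.4), Fosl2 (8.93) and Maff (1.43). At 2 h Junb led at 1265, followed by Atf3 (397), Jund (332), Batf (135), Jun (67.9), Fosl2 (41.1), Maff (23.2) and Fos (8.40). At 4 h Junb (644) and Atf3 (534) still led, and Batf (207) stood above Jund (119). The order has no replicate check. Per length of the main transcript it was the same at 0 h and 2 h, while at 4 h Fosl2 and Jun changed places.

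The genes whose course over the 3 libraries was most like that of Fos, by Euclidean distance in the log2 folds at 2 h and 4 h among 11632 genes, were Tmem68 (0.0732), Gm3081 (0.140), 1810022K09Rik (0.149), Gpr141 (0.152) and Smc6 (0.155). For Maff they were Etv3 (0.397), Tnfaip2 (0.454), Irf1 (0.529), Zhx2 (0.565) and Amotl2 (0.587). Maff had no neighbour as close as those of Fos, but fewer genes lay near it. Of the 14596 genes with a 2 h fold, 99.0% were below that of Maff and 22.6% below that of Fos. Some courses rest on few reads, as 26 at 0 h for Maff, 5 at 2 h for Gm3081 and 8 at 0 h for Amotl2. These distances rest on 3 libraries with no replicates.

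Among transcript features that the choice of members did not use, Jun, Junb and Jund each have 1 exon, 3 of 10 members, where 4.87% of coding genes do. The pentamer AUUUA, the core of elements that shorten the life of an mRNA, was counted in the 3′ untranslated region of the main transcript: 8 times in Fosl2, 4 times each in Fos, Jun and Maff, 3 times in Atf3, 2 times in Junb, 1 time each in Fosb, Fosl1 and Jund, and 0 times in Batf. At least 3 copies were present in 5 of 10 members and in 33.2% of coding genes. In these 5 the region was 4653 bases in Fosl2, 1233 in Jun, 1221 in Maff, 1186 in Atf3 and 815 in Fos. The median over coding genes was 847 bases, and the counts were not adjusted for length. The nonamer UUAUUUAUU was in Fos, Fosl2 and Maff, 3 of 10 members and 7.12% of coding genes. No mRNA decay was measured here.

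Other genes of the network are read against the 19.3% and 19.4% of all genes that were at least 2-fold higher and lower at 2 h, and the 19.8% and 22.3% at 4 h. Of 20 other bZIP partners, 8 were at least 2-fold higher and 3 at least 2-fold lower at 2 h, with a median log2 fold of 0.29. Jdp2, a Jun dimerisation partner, was 52.1-fold higher, Batf2 30.7-fold and Cebpd 21.7-fold, while Cebpa was at 0.176, Cebpg at 0.296 and Atf7 at 0.402 of the 0 h value. At 4 h 7 were higher and 2 lower (median 0.63). Of 30 rows of upstream kinases and factors, in which Map2k7 has 2 rows, 8 were higher and 6 lower at 2 h (median 0.04) and 7 and 8 at 4 h (median 0.03), shares not far from those of all genes.

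Mapkapk2, a kinase activated by p38, was 10.7-fold higher at 2 h, Map3k8 5.34-fold and Map2k3 4.80-fold. Tab1 was at 0.0845, Map2k6 at 0.319 and Mef2d at 0.331 of the 0 h value, on 12, 11 and 90 reads at 2 h. Of 24 genes known as AP-1 targets with a fold, 17 were higher and 2 lower at 2 h (median 3.35), and 19 and 2 at 4 h (median 2.71). Ptgs2, the inducible prostaglandin synthase, was 582-fold higher at 2 h, Il1b 532-fold and Tnf 264-fold, while Ccnd1 was at 0.297 on 9 reads and Plau at 0.435. These genes are also targets of other LPS-activated factors, and the part of AP-1 was not tested.

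Summed macrophage markers were at 34894, 24567 and 19572 reads per 1000000 at 0, 2 and 4 h, but at 349902, 389648 and 347347 with the authors' factors, so the fall of the sum depends on the scaling. Lyz2 carried most of the sum, at 24182, 14140 and 11786 reads per 1000000, while Cd14 was at 283, 2020 and 986 and Fcgr1 at 143, 287 and 900. The 7 heat shock genes, which respond to handling, summed to 170, 177 and 196 reads per 1000000, and to 1709, 2802 and 3478 with the authors' factors. Neutrophil markers summed to 475, 630 and 397 reads per 1000000, and to 4761, 9988 and 7054 with the authors' factors, with Ly6g on 4, 1 and 2 reads. B cell markers summed to 7.12, 2.89 and 0.888 reads per 1000000, nearly all of it Cd79b. Among the heat shock genes, Hspa1a was at 0.641, 11.4 and 6.19 reads per 1000000 and Hsph1 at 13.9, 5.78 and 3.49. Their part in the member values was not tested. In bulk RNA, fewer cells of a type and less RNA per cell cannot be told apart.

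With AAV-Shisa3 the family split. Fos, Fosl1 and Junb rose and Batf fell, 3 and 1 of the 9 members tested, where 2.23% and 4.1% of the 11218 genes tested were called higher and lower. The test was limma with a variance trend on log2(TPM + 1), with Benjamini-Hochberg adjustment over all genes and a threshold of 0.05. The groups did not overlap for 8 of the 9, with 5 higher (Fos, Fosl1, Fosl2, Junb and Atf3) and 3 lower (Jun, Jund and Batf), against 18.2% and 41.2% of all genes. The median log2 difference of the 9 members was 0.41, against −0.10 over all genes. Centring each sample on its median turned 250 genes higher and 460 lower over the whole table into 410 and 230, with the members still at 3 and 1.

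These 4 calls rest on all 4 samples. Without AAV-GFP replicate 1, AAV-GFP replicate 2, AAV-Shisa3 replicate 1 or AAV-Shisa3 replicate 2, limma called 0 members, with 3 or 4 above and 1 below at an unadjusted p under 0.05, and adjusted p-values of Fos, Fosl1, Junb and Batf between 0.0612 and 0.160. Over all genes these fits called 0 to 32 higher and 0 to 10 lower, and 2058 to 2438 had an unadjusted p under 0.05. Of 22 other genes of the lists and markers called with all samples, 0 were called without either AAV-GFP sample, 1 (Plaur) without AAV-Shisa3 replicate 1 and 3 (Plaur, Camp and Ngp) without AAV-Shisa3 replicate 2, and all 22 kept their direction. The member calls were also lost without limma's trend (adjusted p 0.0557 to 0.0719, limma) and with no filter on low genes (0.105 to 0.141). The direction of all 9 members was the same in each of these fits. An exact two-sided permutation test of 2 samples against 2 cannot go below p = 0.333. No label says that the samples of a group came from separate cultures or animals, so the p-values measure the spread between these samples, which may be technical.

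**Figure D3:**
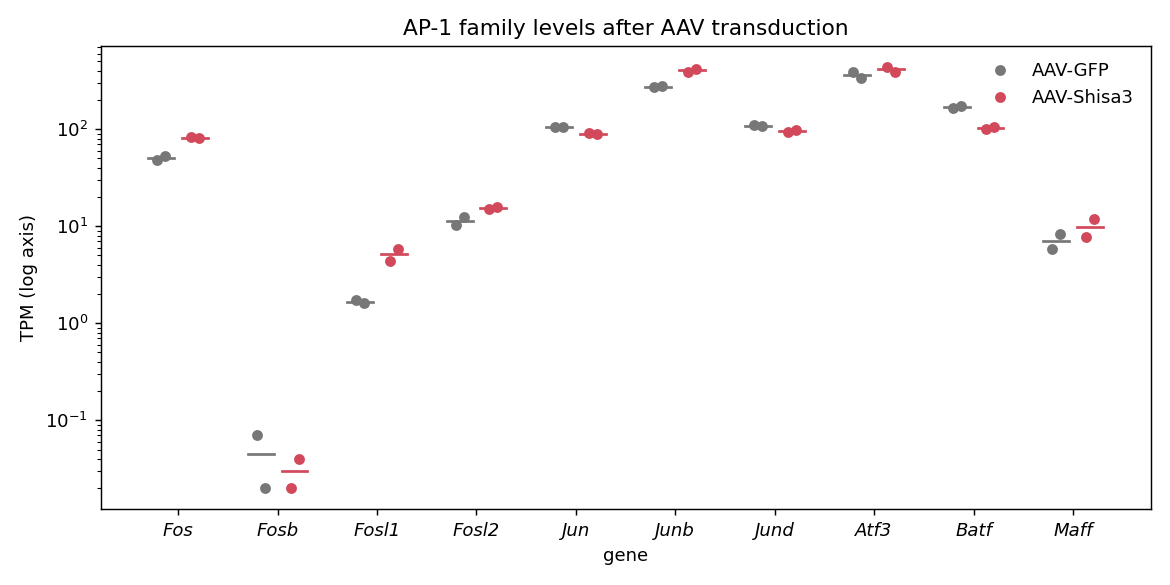
TPM (log axis) of the 10 members in the 2 AAV-GFP (grey) and 2 AAV-Shisa3 samples (red), each point a sample and each bar the group mean. Both red points lie above both grey points for Fos, Fosl1, Fosl2, Junb and Atf3, and below them for Jun, Jund and Batf.

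Fos was at 48.64 and 52.58 TPM under AAV-GFP against 82.29 and 80.35 TPM under AAV-Shisa3. The groups lay apart, and the log2 difference of 0.67 (SE 0.0824) passed the threshold (limma with Benjamini-Hochberg adjustment, adjusted p = 0.0206). Fosl1 was at 1.73 and 1.61 TPM under AAV-GFP against 4.40 and 5.88 TPM under AAV-Shisa3, the largest rise among the members at 1.19 (SE 0.185, adjusted p = 0.0292) although its level stayed low. Fosl1 shares 1163 exon bases with Ccdc85b on the opposite strand, and whether reads were counted by strand is not given in the sources used here. Ccdc85b was at 1.85 and 1.65 TPM under AAV-GFP against 1.45 and 2.34 TPM under AAV-Shisa3, groups that overlapped.

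Fosl2 was at 10.24 and 12.47 TPM under AAV-GFP against 15.00 and 15.65 TPM under AAV-Shisa3, and its log2 difference of 0.41 missed the threshold (limma with Benjamini-Hochberg adjustment, adjusted p = 0.114). Fosb was at 0.07, 0.02, 0.02 and 0.04 TPM, under the mean of 1 TPM needed for testing. The summed Fos family level was 60.7 and 66.7 TPM under AAV-GFP against 101.7 and 101.9 TPM under AAV-Shisa3. Fos made up 78.8% to 80.9% of it in all 4 samples. The share of Fosl1 went from 2.85% and 2.41% under AAV-GFP to 4.33% and 5.77% under AAV-Shisa3, and that of Fosl2 from 16.9% and 18.7% to 14.7% and 15.4%, without overlap between the groups.

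Junb was at 272.32 and 275.26 TPM under AAV-GFP against 383.83 and 421.24 TPM under AAV-Shisa3, a log2 difference of 0.55 (SE 0.0762, limma with Benjamini-Hochberg adjustment, adjusted p = 0.0236). Jun was at 106.37 and 105.56 TPM under AAV-GFP against 90.21 and 89.58 TPM under AAV-Shisa3, a difference of −0.23 (adjusted p = 0.107). Jund was at 110.25 and 107.42 TPM against 92.44 and 97.59 TPM, a difference of −0.19 (adjusted p = 0.166). Jun and Jund lay lower in both AAV-Shisa3 samples but missed the threshold, where the median of all genes was −0.10. With each sample centred on its median, the difference was −0.12 for Jun (adjusted p = 0.379, limma) and −0.08 for Jund (adjusted p = 0.579, limma). Junb went from 55.7% and 56.4% of the summed Jun family level to 67.8% and 69.2%. Junb shares 173 exon bases with Prdx2 and Jund 877 with Gm11175, both on the opposite strand, and Gm11175 was at 0 and 9.21 TPM under AAV-GFP against 0 and 2.55 TPM under AAV-Shisa3.

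Batf was at 166.39 and 173.01 TPM under AAV-GFP against 99.80 and 106.06 TPM under AAV-Shisa3. It was the member that fell, by 0.72 on the log2 scale (SE 0.0754, limma with Benjamini-Hochberg adjustment, adjusted p = 0.0178), and its share of the summed Atf3, Batf and Maff level went from 29.5% and 33.3% to 18.3% and 20.8%. Atf3 was at 390.9 and 337.58 TPM under AAV-GFP against 436.82 and 391.96 TPM under AAV-Shisa3 and the groups came close without overlapping, with a difference of 0.19 (adjusted p = 0.280). Maff was at 5.79 and 8.30 TPM under AAV-GFP against 7.72 and 11.88 TPM under AAV-Shisa3, and these groups overlapped (0.42, adjusted p = 0.311).

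**Figure D4:**
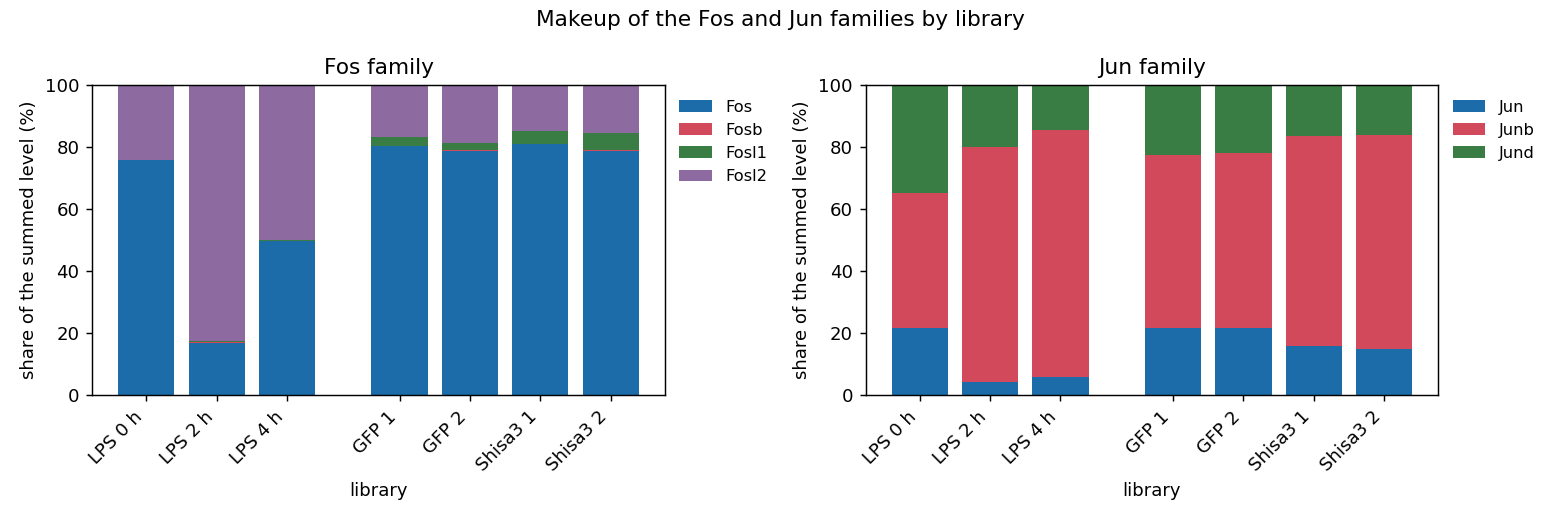
Share of each member (%) in the summed Fos family level (left) and Jun family level (right) in the 3 LPS libraries, from reads per exon length, and in the 4 AAV samples, from TPM. Fosl2 makes up 82.7% of the Fos family at 2 h of LPS, and Junb 67.8% and 69.2% of the Jun family with AAV-Shisa3.

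The order of levels was the same in both AAV groups, with Atf3 highest, then Junb, Batf, Jund, Jun, Fos, Fosl2, Maff, Fosl1 and Fosb. With AAV-Shisa3 the ranges of Atf3 and Junb overlapped, so these neighbours did not differ beyond their spread, while with AAV-GFP the ranges of neighbours did not overlap. Batf, at 10.4 per exon length in untreated BMDMs, stood below Jun and Fos there and above both in the AAV samples. The tables were normalised separately and are not compared by level.

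Among the other bZIP partners 20 were tested, of which 1 rose and 6 fell, against 2.23% and 4.1% of all genes, with a median log2 difference of −0.17 against −0.10. Cebpb, a bZIP factor of inflammatory genes, rose by 0.48 (limma with Benjamini-Hochberg adjustment, adjusted p = 0.0422). Batf3, the closest relative of Batf, fell by 1.07 (adjusted p = 0.0203), from 28.44 and 35.43 TPM to 14.21 and 14.94 TPM. Jdp2 fell by 0.73 (adjusted p = 0.0431), Creb1 by 0.64 (0.0476) and Ddit3, a stress-induced partner, by 0.64 (0.04997).

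Of 28 upstream kinases and factors tested, 0 rose and 1 fell by limma, against 2.23% and 4.1% of all genes, and the median was −0.07. At an unadjusted p under 0.05, 5 were above and 5 below, against 8.21% and 19.8% of all genes. The call was Mapk14, the p38 alpha kinase, which fell by 0.62 (limma with Benjamini-Hochberg adjustment, adjusted p = 0.0233). Of 21 genes known as AP-1 targets that were tested, 8 rose and 2 fell, with a median of 0.42. Il1b rose by 1.65 (adjusted p = 0.0361), Vegfa by 1.64 (0.0113), Plaur, the urokinase receptor, by 1.38 (0.00962) and Tnf by 0.73 (0.0179), while Plau fell by 0.82 (0.0367) and Cdkn1a by 0.33 (0.0495). The lists were drawn up with earlier results of these data known, and many of these targets also answer to NF-kB.

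Some markers moved with the AAV groups. Of 10 macrophage markers, Cd14, a co-receptor for LPS, rose by 0.78 (limma with Benjamini-Hochberg adjustment, adjusted p = 0.0153), from 734.8 and 711.7 TPM under AAV-GFP to 1199 and 1282 TPM under AAV-Shisa3. Fcgr1 lay lower in both AAV-Shisa3 samples, at 1127 and 1005 TPM against 861.6 and 812.4 TPM, but missed the threshold (−0.35, limma, adjusted p = 0.0694). Itgam did so too, at 816.3 and 950.8 TPM against 749.0 and 793.1 TPM (−0.19, limma, adjusted p = 0.243). Csf1r lay higher in both AAV-Shisa3 samples, at 1499 and 1624 TPM against 1891 and 1975 TPM. Csf1r also missed the threshold (0.31, limma, adjusted p = 0.0712). The macrophage markers summed to 37696 and 35615 TPM against 39212 and 36871 TPM, groups that overlapped. The summed level of neutrophil markers was 593 and 565 TPM under AAV-GFP against 1092 and 683 TPM under AAV-Shisa3, with Camp and Ngp rising among 8 tested, while Ly6g, which defines the type, was at 0.10 to 0.29 TPM in all samples. Heat shock genes summed to 540 and 569 TPM against 492 and 529 TPM, and Hsph1 fell. The part of these in the member values was not tested.

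Set side by side, the experiments gave different patterns for the same genes. Junb was higher in both, 22.5-fold at 2 h of LPS and by 0.55 on the log2 scale with AAV-Shisa3. Fos was below its 0 h level at 2 h of LPS and above it at 4 h, and rose with AAV-Shisa3. Batf had the largest 4 h fold after LPS and was the member that fell with AAV-Shisa3. Jun and Jund were higher at 2 h of LPS. With AAV-Shisa3 they missed the threshold, at −0.23 and −0.19, or −0.12 and −0.08 with samples centred on their medians. The difference between the experiments was not tested, since they are separate tables and the LPS libraries have no replicates.

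**Figure D5:**
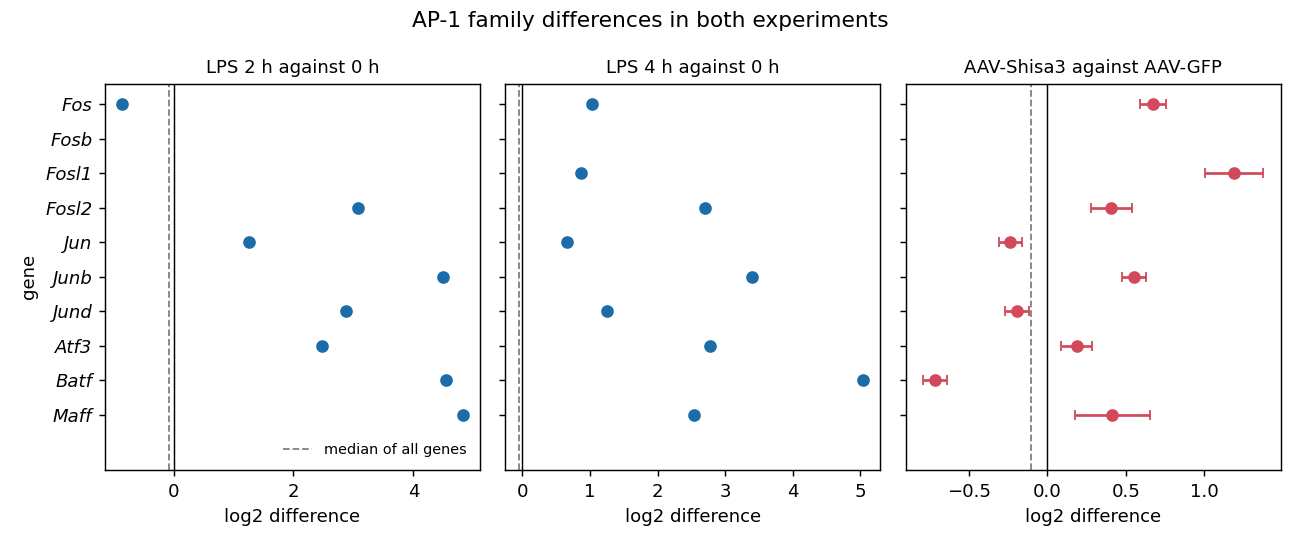
Log2 difference of each member at 2 h and 4 h of LPS against 0 h (blue, 1 library each, no error) and for AAV-Shisa3 against AAV-GFP (red, with SE of the limma fit), each panel on its own axis. The dashed line is the median of all genes, and Batf lies far right in the LPS panels and far left in the AAV panel. Fosb has no value in any panel and Fosl1 none at 2 h, and the 4 h value of Fosl1, 0.87, is set against 3 reads at 0 h, where it had 0.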

How the data were processed

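RNA was sequenced as 150 bp paired-end reads in 3 LPS libraries and 4 AAV samples. For LPS the authors deposited a signal per gene, namely its reads over a factor set for each library. The reads were recovered, with 100% of values whole within 0.01. For AAV the authors deposited values that sum to nearly the same total in each sample, taken on that ground to be TPM, as no source states the unit. The aligner and counter are not given in the sources used here, and the submitters' processing notes name mm9. Identifiers matched GENCODE M21 on GRCm38 for 99.2% of the LPS genes, and positions, lengths and GC content came from it. LPS folds used log2(value + 1) for genes with a mean of at least 1, each value floored at 3 reads, and no fold where the floor decides its sign. Intervals were exact for folds and Wilson for shares, at 95%.

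AAV samples were compared with limma 3.58.1 (trend) in R 4.3.3, on log2(TPM + 1), where the mean reached 1 TPM. The pseudocount understates changes of low genes. The scripts were tested on simulated data. All 10 members are named, with, from each list, those called with AAV-Shisa3 (at most 4 per direction) and the 3 largest LPS folds per direction at 2 h, and the 5 genes nearest to the members that changed most upward and downward between 2 h and 4 h. Members and lists were chosen with earlier results of these data known. Alternatives were centring, library totals and TMM (edgeR 4.0.16), pseudocounts of 0.1 and 5, other filters, limma without its trend, a replicate block and leaving out each AAV sample. The scripts ran in Python 3.11.15 (scipy 1.17.1, pandas 2.3.3, numpy 2.4.6, matplotlib 3.10.9).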

Additional observations from a re-analysis of the deposited data

How the results depend on the processing

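Calls with AAV-Shisa3 depended on the fit. Members called higher and lower went from 3 and 1 to 0 and 0 without limma's trend and to 0 and 0 with no filter on low values, where the adjusted p-values of Fos, Fosl1, Junb and Batf were 0.0557 to 0.0719 and 0.105 to 0.141 and their unadjusted p stayed at or below 0.00435. The cause was not tested. Over all genes limma called 250 higher and 460 lower in the fit reported, 1 and 4 without the trend, and 0 with no filter, where 3529 had an unadjusted p under 0.05. Leaving out 1 sample gave 0 to 0 members higher and 0 to 0 lower, and the lone sample of a group is then assumed to vary like the others. Centring each sample on its median moved the share of called genes that were higher from 35.2% to 64.1%. Each of the 9 tested members kept its direction under every AAV setting run.

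The fit with the replicate number as a block called 3 members higher and 1 lower, as without the block, and 424 genes higher and 851 lower against 250 and 460. Same-numbered samples deviated together with a correlation of 0.188, and no label says that the numbers pair the samples.

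Scaled to library totals, 1 member, Fos, was at least 2-fold lower at 2 h of LPS in place of 0. Relative to genes of similar GC content, added after seeing the data, 1 member was at least 2-fold lower at 4 h than at 2 h in place of 3. Members at least 2-fold higher at 4 h numbered 7, and 5 to 9 over the settings run. Of the planned LPS settings for single members, 136 stayed within the counting interval of the fold reported and 38 moved beyond it. With 1 library per time point the spread between cultures was not measured, and the intervals cover counting error only, which was wide for Fosb and Fosl1 (0 to 8 reads in each library) and, among the better counted members, for Maff (26 reads at 0 h).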
